A study of Mus musculus with 9 samples.

Results

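Cholesterol synthesis and its control were described here through 28 genes, 28 of the 24341 in the deposited table. The genes were taken by name: 20 enzymes of the route from acetyl-CoA to cholesterol, 6 genes of SREBP and LXR regulation, and 2 genes that move or esterify sterols. All 28 were in the table, and all 28 passed the filter for testing, a mean of at least 0.1 FPKM over the 9 mice. FPKM is a fragment count scaled by transcript length and by a size factor of the library. A log2 fold change is the anti-CD40 mean minus the control mean of log2(FPKM + 0.1). RNA came from whole livers of wild-type C57BL/6 mice collected 48 hours after treatment. The 3 anti-CD40 mice (mice 2, 5, and 9) had received FGK45, an antibody that activates the immune receptor CD40, and the 6 control mice (mice 3, 4, 7, 8, 11, and 12) had received PBS. No engineered allele is labelled in either group, the labels give no age (sex-matched young adults were the rule in the study), and each library came from 1 mouse. Per the study's methods, anti-CD40 mice whose blood B cells did not fall were dropped from analysis. The libraries were whole tissue, in which fewer cells of a type and less RNA per cell cannot be told apart.

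Cells build cholesterol from acetyl-CoA through mevalonate, isoprenoids, squalene, and lanosterol, and the liver is a major site of this work. The transcription factor SREBP-2, from Srebf2, drives most genes of the route, whereas SREBP-1, from Srebf1, mainly drives fatty acid synthesis in the liver. Both are held in the endoplasmic reticulum by Scap and the Insig proteins when sterols are plentiful, and are cut and released to the nucleus when sterols run low. The LXR receptors, from Nr1h2 and Nr1h3, sense oxidized sterols and turn on Srebf1 and sterol export.

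Transcripts for cholesterol synthesis were lower in the livers of anti-CD40 mice at most steps of the route. Of the 28 genes, 19 had fallen, 1 had risen, and 8 did not pass the test (limma, Benjamini-Hochberg adjusted p under 0.05 over 13807 genes). Of all genes tested, 21.7% fell and 23.5% rose, beside 67.9% and 3.57% of the 28. The median log2 fold change of the 28 genes was -1.31, and that of all genes tested was 0.0056. Among the 20 enzymes, 15 fell and 1, Lbr, rose, with a median of -1.46. Every anti-CD40 mouse was below every control mouse for 18 of the 28 genes (64.3%), as for 19.6% of all genes, and above every control mouse for 2 genes (7.14%), as for 22.7% of all genes. The largest declines were those of Tm7sf2 (9.89-fold), Srebf1 (5.83-fold), Insig1 (5.16-fold), Mvk (4.29-fold), and Pmvk (4.14-fold).

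**Figure D1:**
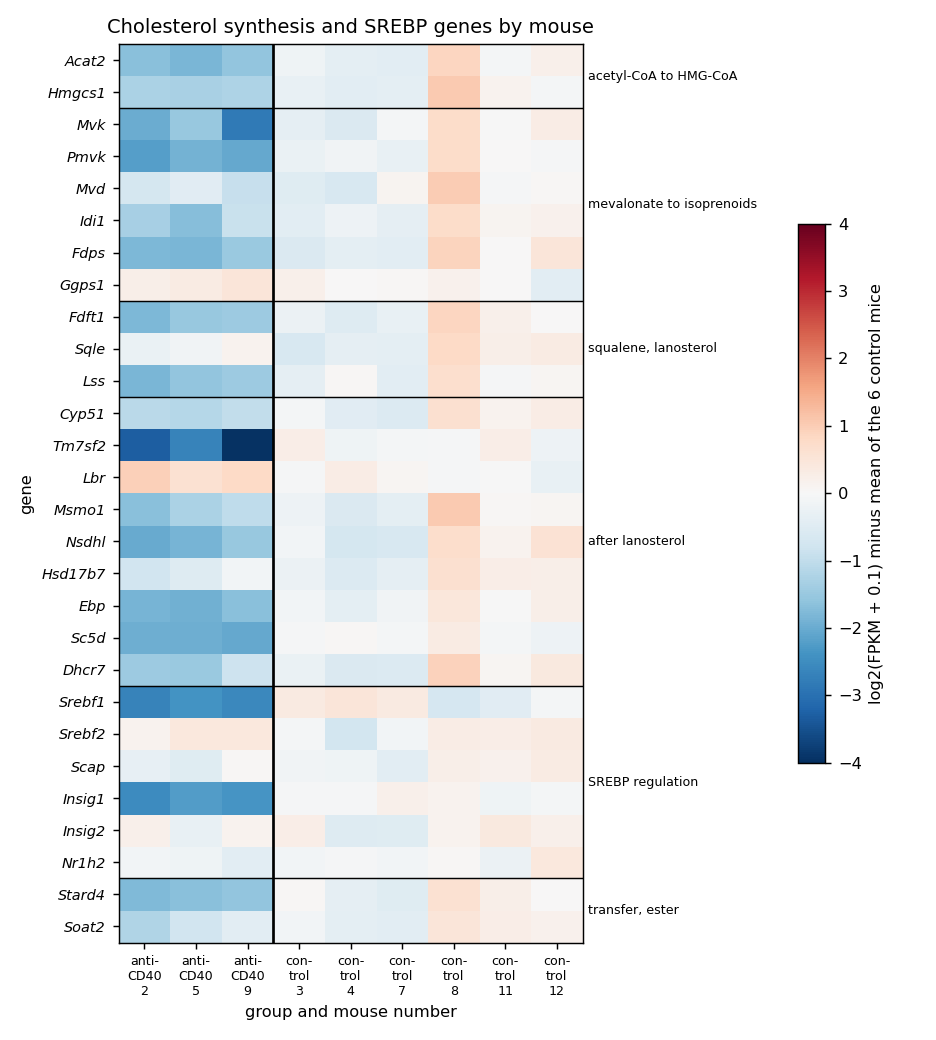
Each cell is the log2(FPKM + 0.1) of 1 gene in 1 mouse minus the mean of the 6 control mice, with genes in rows by their place in the route and mice in columns. The 3 anti-CD40 columns are blue for most genes and red for Lbr, and among the control columns mouse 8 is red for most enzymes and blue for Srebf1.

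Control mouse 8 was the highest control for 19 of the 28 genes and for 17 of the 20 enzymes. Its median deviation from the control mean was 0.73 on the log2 scale over the enzymes, whereas the other control mice lay between -0.40 and 0.11. By Dixon's test over the 6 controls this gap was not past the critical value, at 0.547 of the range for the enzymes and 0.463 for the 28 genes, and among the enzymes mouse 8 was past it for Pmvk alone. Hmgcs1 in mouse 8 was 2.52 times the median of the other controls, Fdps 2.46 times, and Msmo1 2.36 times, but Srebf1 was 0.494 times and was the lowest control. Its relative depth, read from the steps between low values, was 0.871 of the geometric mean of the 9 mice, the lowest of all, beside 0.921 to 1.06 in the other controls and 0.991 to 1.13 in the anti-CD40 mice. Such steps also carry any scaling between mice that the deposited values hold. Without mouse 8, 19 of the 28 genes were still called lower and 1 higher, and their median log2 fold change was -1.13.

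Other features of the tissue moved with the groups. Of 9 hepatocyte marker genes in the table, 7 fell, 1 rose, and 1 did not pass, with a median log2 fold change of -1.02 and a range from -2.43 to 0.88. Summed over the list, FPKM ran from 49196 to 97622 in controls and from 23276 to 28705 after anti-CD40, so the liver label held in all 9. All 5 Kupffer cell markers fell, from a sum of 268 to 425 FPKM in controls to 37.2 to 48.1 FPKM. All 7 neutrophil markers in the table rose (sums of 18.9 to 154 in controls and 4184 to 5171 after anti-CD40), as did 6 of 8 monocyte and macrophage markers, 1 of which fell (45.7 to 80.9 and 283 to 400). Of the T cell markers 5 of 6 rose (2.54 to 4.34 and 8.39 to 10.6), as did all 4 tested of 5 B cell markers (1.59 to 6.54 and 24.3 to 34.7). Of 7 endothelial markers 2 rose and 3 fell (82.6 to 108 and 77.9 to 88.5), and of 6 stellate cell markers 2 rose and 2 fell (206 to 309 and 203 to 230). Of 8 pancreatic acinar genes 2 rose (70.4 to 190 and 28.2 to 789), and none of the 5 tested erythroid genes passed the adjusted threshold in limma (0 at an unadjusted p under 0.05), at sums of 7494 to 50531 in controls and 4176 to 14320 after anti-CD40. The erythroid gene Hba-a1 was listed at the floor of 0.01 in all mice, as was no other marker. The acute phase genes Saa1, Saa2, and Saa3 took 0.0449% to 0.380% of all FPKM in a control mouse and 25.4% to 25.9% in an anti-CD40 mouse. The deposited values were nonetheless level between mice, with median ratios to the geometric mean of the 9 mice from 1.004 to 1.010. Leaving these 3 genes out and rescaling each mouse shifted the median over all genes to 0.35 on the log2 scale. In that setting 18 of the 28 genes were lower and 3 higher, with a median of -0.96. The part of these cell types in the changes of the sterol genes was not tested.

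Because most of the 28 genes moved together, their promoters were read from RefSeq (GRCm38.p6, the assembly behind mm10), as windows from 250 bases before to 50 bases after the start of each transcript. Windows were found for 23 of the 28 genes, with 31 windows in all, and not for Fdps, Fdft1, Sqle, Stard4, and Soat2. The letters TCACNCCA, a core of the sterol response element to which SREBPs bind, occurred on either strand in 3 of the 31 windows (9.68%) and in 4.36% of all 32851 windows. The E-box CACGTG, which SREBP-1 can also bind, was in 6 of 31 (19.4%) and in 7.15% of all windows. Overlapping windows of Scap hold the same E-box, so the 6 windows stand for 5 of the 23 genes. The box CCAAT, bound by NF-Y, was in 21 of 31 (67.7%) and 37.4% of all, and GGGCGG, bound by Sp1, was in 24 of 31 (77.4%) and 35.7% of all. NF-Y and Sp1 are known partners of the SREBPs at sterol genes. Each of CCAAT and GGGCGG, taken alone, was found for 14 of the 15 lowered genes that had a window and for 6 of the 8 that were not lowered. The E-box was found for 3 of the 15 (Insig1, Sc5d, and Dhcr7) and for 2 of the 8 (Hsd17b7 and Scap). A TCACNCCA can share its last letters with a CCAAT. These are matches of letters and not measured sites, and none was compared by a test.

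The windows with TCACNCCA belonged to Hmgcs1, Msmo1, and Srebf2, the first 2 lowered and the third not. They are shown as 60 bases of the gene's strand, 5′ to 3′, with the match in capitals, on GRCm38.p6. Hmgcs1 is read from the plus strand at chr13:119690184-119690243 with the match at -137 from the start, Msmo1 from the minus strand at chr8:64733726-64733785 with the match at -177, and Srebf2 from the plus strand at chr15:82147077-82147136 with the match at -162.
Hmgcs1: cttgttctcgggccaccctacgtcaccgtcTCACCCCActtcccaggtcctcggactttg
Msmo1: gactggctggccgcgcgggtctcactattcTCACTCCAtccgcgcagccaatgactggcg
Srebf2: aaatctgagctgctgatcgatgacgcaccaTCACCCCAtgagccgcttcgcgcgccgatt
The Msmo1 stretch also holds 1 CCAAT in lower case, a few bases after the capitals.

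The 3 genes with the smallest adjusted p, Insig1, Sc5d, and Tm7sf2, held no TCACNCCA in these windows. Insig1 (plus strand, chr5:28071281-28071340) and Sc5d (minus strand, chr9:42264369-42264428) held an E-box, at -101 and -98, and Tm7sf2 (minus strand, chr19:6067868-6067927) held a CCAAT on the opposite strand, at -47. Capitals mark the E-box in the first pair and ATTGG, the reverse complement of CCAAT, in Tm7sf2.
Insig1: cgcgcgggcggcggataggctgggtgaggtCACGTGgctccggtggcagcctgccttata
Sc5d: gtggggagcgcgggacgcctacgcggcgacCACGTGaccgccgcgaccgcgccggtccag
Tm7sf2: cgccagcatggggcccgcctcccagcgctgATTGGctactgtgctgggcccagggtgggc

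The route opens with Acat2, a thiolase that joins acetyl-CoA units, and Hmgcs1, which adds another to make HMG-CoA. Both fell. Acat2 (chromosome 17 of mm10, 12943042 to 12960725) was at 31.3, 28.01, and 33.6 FPKM in anti-CD40 mice 2, 5, and 9. The controls lay between 74.5 and 180 FPKM, with a median of 90.6. Every anti-CD40 mouse was thus under the lowest control, a 3.21-fold decline (log2 fold change -1.68, SE 0.25, adjusted p = 3.73e-04 from limma). Hmgcs1, whose promoter stretch is shown above, was at 113, 110, and 116 FPKM after anti-CD40 and between 202 and 556 FPKM in controls, with a median of 238. Its groups did not overlap either, and it fell by 2.39-fold (log2 fold change -1.26, SE 0.28, adjusted p = 0.00461). The highest control was mouse 8 for both genes, and without it their log2 fold changes were -1.51 and -1.05. Single genes were also tested by a 2-sided exact permutation over the 84 splits of the 9 mice, whose smallest p is 0.0238, and the 20 genes whose groups did not overlap were all at that value.

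The next 4 enzymes turn mevalonate into the isoprene units. Mvk and Pmvk, the kinases that phosphorylate mevalonate in turn, were at 4.93, 6.82, and 2.69 FPKM and at 17.0, 21.1, and 19.1 FPKM in anti-CD40 mice 2, 5, and 9. In controls Mvk lay between 13.1 and 32.7 FPKM (median 18.9), and Pmvk between 64.9 and 131 FPKM (median 74.6). Neither gene had any overlap between groups, and Mvk differed more among anti-CD40 mice than Pmvk did. Their log2 fold changes were -2.10 (SE 0.32, adjusted p = 4.34e-04) and -2.05 (SE 0.21, adjusted p = 2.88e-05). Mvd, the decarboxylase that follows, did not pass the test. It was at 35.8, 42.6, and 30.7 FPKM after anti-CD40 and between 37.1 and 118 FPKM in controls (median 58.1), with control mice 3 and 4 among the values of the anti-CD40 mice. Its log2 fold change was -0.68, with a 95% interval from -1.37 to 0.0046 (adjusted p = 0.0975). It passed the threshold without control mouse 4 (-0.81, adjusted p = 0.0416). Idi1, the isomerase of the isoprene units, was low in all mice, at 0.745, 0.558, and 1.04 FPKM after anti-CD40 and between 1.49 and 3.41 FPKM in controls (median 1.96). The smallest whole numbers of reads that fit these values were 44, 31, and 54, and 76 to 155 in controls. The groups did not overlap, and Idi1 fell by 1.30 on the log2 scale (SE 0.27, adjusted p = 0.00279).

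Fdps and Ggps1 stand at the branch where isoprene units become farnesyl and geranylgeranyl diphosphate, the latter used to attach lipids to proteins, and here the genes parted. Fdps, the farnesyl diphosphate synthase, was at 20.1, 19.9, and 25.2 FPKM after anti-CD40 and between 47.7 and 132 FPKM in controls (median 62.7). It fell by 3.27-fold with no overlap between groups (log2 fold change -1.71, SE 0.30, adjusted p = 0.00111). Ggps1, the geranylgeranyl diphosphate synthase, was at 2.85, 3.08, and 3.45 FPKM after anti-CD40 and between 1.77 and 2.80 FPKM in controls (median 2.45). All 3 anti-CD40 mice were above all 6 controls, by a narrow margin between mouse 2 and control mouse 3. Its log2 fold change of 0.36 did not pass limma (SE 0.16, adjusted p = 0.0870). It passed with the Saa genes left out and rescaled (0.71, adjusted p = 0.00545), a setting that moved the median over all genes to 0.35.

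From 2 farnesyl units Fdft1 makes squalene, the first intermediate committed to sterols. Fdft1 was at 5.82, 7.07, and 7.35 FPKM after anti-CD40 and between 14.2 and 37.2 FPKM in controls (median 19.0). It fell by 3.01-fold with no overlap (log2 fold change -1.59, SE 0.26, adjusted p = 6.92e-04). Its annotated 3′ end lies within 774 bases shared with Ctsb on the other strand, and Ctsb moved the other way (log2 fold change 0.36, adjusted p = 0.0216). Whether the counting used strand is not given in the sources used here. Sqle, the squalene epoxidase and a known slow step of the route, was at 10.2, 11.1, and 13.5 FPKM after anti-CD40 and between 7.84 and 21.5 FPKM in controls (median 12.2). Its anti-CD40 values lay inside the control range. Its log2 fold change was -0.10, with a 95% interval from -0.74 to 0.55 (adjusted p = 0.806), and it was 0.06 without control mouse 8. With the Saa genes left out and rescaled it was 0.27, where the median over all genes was 0.35. Lss, which folds the epoxide into lanosterol, fell from between 1.73 and 3.84 FPKM in controls (median 2.37) to 0.589, 0.728, and 0.798 FPKM, a log2 fold change of -1.62 (SE 0.23, adjusted p = 2.76e-04). The step between Fdft1 and Lss was thus the one of the 3 without a called decline.

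**Figure D2:**
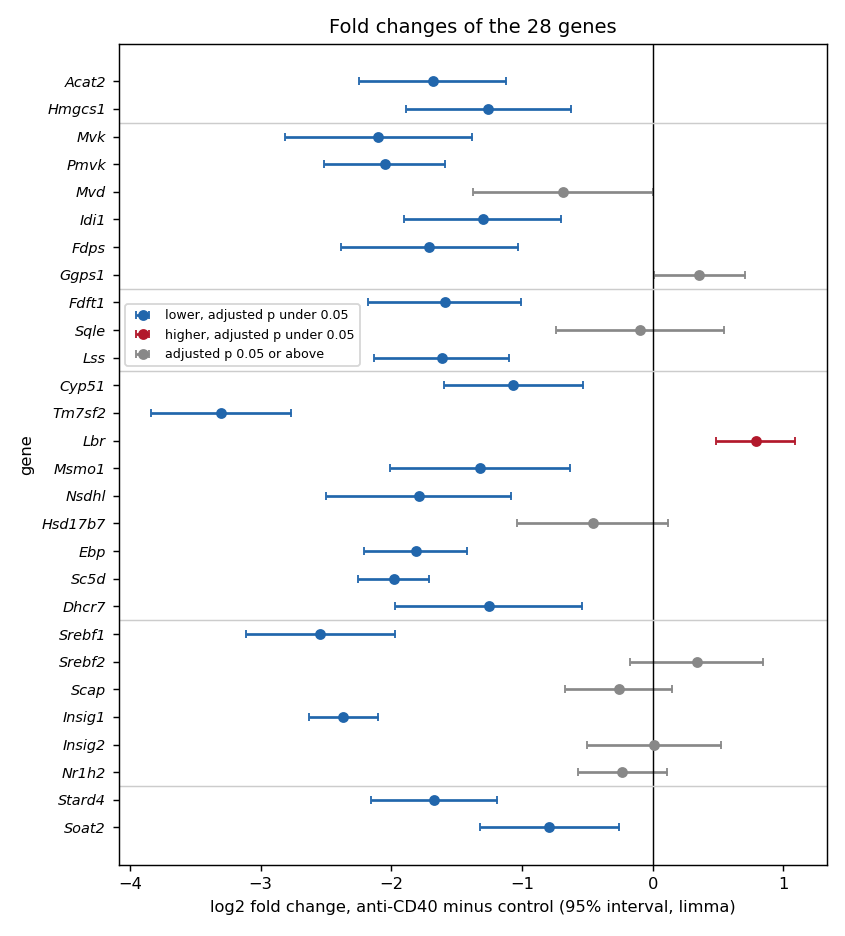
Points are log2 fold changes of anti-CD40 against control for the 28 genes, with 95% intervals from limma, and colours mark the call at an adjusted p of 0.05. Of the points, 19 are called lower, Lbr alone is called higher, and Mvd, Ggps1, Sqle, Hsd17b7, Srebf2, Scap, Insig2, and Nr1h2 are grey.

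After lanosterol the route removes methyl groups, shifts double bonds, and ends at cholesterol. Cyp51, the P450 enzyme that starts the removal, was at 53.5, 50.8, and 56.7 FPKM after anti-CD40 and between 76.4 and 175 FPKM in controls (median 115). It fell by 2.09-fold without overlap (log2 fold change -1.07, SE 0.24, adjusted p = 0.00446). The double bond that Cyp51 leaves can be reduced by either of a pair of enzymes, Tm7sf2 and Lbr, and these moved in opposite directions. Tm7sf2 was at 1.91, 2.98, and 1.17 FPKM in anti-CD40 mice 2, 5, and 9, against 16.9 to 23.5 FPKM in controls (median 18.8). The spread among the 6 controls was small (coefficient of variation 15.0%), and mouse 8 was not apart from them, at 1.01 times the median of the others. The log2 fold change of -3.31 was the lowest of the 28 genes (SE 0.24, adjusted p = 3.62e-06). The table gives Tm7sf2 the same locus on chromosome 19 as Vps51, whose log2 fold change was -0.51 (adjusted p = 0.0713). The 2 genes share 532 bases on the same strand, away from the annotated 3′ end of Tm7sf2, so strand cannot separate reads there. Lbr, which is also the lamin B receptor of the inner nuclear membrane, was at 22.4, 17.6, and 20.2 FPKM after anti-CD40 and between 9.42 and 14.1 FPKM in controls (median 11.3). All anti-CD40 mice were above all controls, and Lbr rose by 1.73-fold (log2 fold change 0.79, SE 0.14, adjusted p = 9.21e-04). It was called higher under all 19 alternatives, with values from 0.71 to 1.15. Lbr is a gene of the nuclear envelope in many cell types, and the neutrophil, monocyte, T cell, and B cell markers rose in the same mice. Their part in the rise of Lbr was not tested.

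Msmo1, Nsdhl, and Hsd17b7 encode the enzymes that remove the remaining methyl groups by oxidation, decarboxylation, and reduction. Msmo1 was at 54.5, 73.2, and 85.6 FPKM after anti-CD40 and between 117 and 359 FPKM in controls (median 167), and fell by 1.32 on the log2 scale (SE 0.31, adjusted p = 0.00562). Nsdhl fell from between 15.9 and 42.3 FPKM in controls (median 26.3) to 6.36, 7.00, and 9.05 FPKM (log2 fold change -1.79, SE 0.32, adjusted p = 0.00108). The groups did not overlap for either. Hsd17b7, the reductase of the same unit, was at 11.2, 13.1, and 17.7 FPKM, within the control range of 12.8 to 29.3 FPKM in mice 5 and 9 and below it in mouse 2. Its log2 fold change of -0.46 did not pass (95% interval from -1.04 to 0.12, adjusted p = 0.178).

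Of the final enzymes, Ebp shifts a double bond in the sterol ring, Sc5d adds another, and Dhcr7 reduces one in the last step of its branch. Ebp was at 221, 215, and 253 FPKM after anti-CD40 and between 613 and 1104 FPKM in controls (median 767), a 3.52-fold decline (log2 fold change -1.81, SE 0.18, adjusted p = 2.15e-05). Sc5d (chromosome 9, 42254177 to 42264300) was at 58.1, 57.9, and 55.2 FPKM against 196 to 287 FPKM in controls (median 217). It was the steadiest of the lowered enzymes, with a log2 fold change of -1.98 and an SE of 0.12 (adjusted p = 1.60e-06). Dhcr7 was at 2.92, 2.86, and 4.61 FPKM against 5.51 to 15.5 FPKM (median 7.76), and fell by 1.26 on the log2 scale (SE 0.32, adjusted p = 0.00908). No anti-CD40 mouse reached the lowest control for any of the 3, although mouse 9 came near control mouse 4 for Dhcr7.

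The genes that regulate the route split in the same way, into a pair that fell far and others whose intervals spanned 0. Srebf1 was at 2.18, 2.65, and 2.35 FPKM in anti-CD40 mice 2, 5, and 9. In control mice 3, 4, 7, 8, 11, and 12 it was at 18.4, 20.4, 18.3, 9.05, 10.5, and 13.6 FPKM. All anti-CD40 mice were far below the lowest control, mouse 8. The controls were themselves spread, with mice 3, 4, and 7 above the others. The log2 fold change was -2.54 (SE 0.26, adjusted p = 2.64e-05). Reads from the 3′ end cannot separate SREBP-1a from SREBP-1c, and the last 109 bases of the annotated gene are shared with Rai1 on the other strand, which was at 0.437 to 0.543 FPKM after anti-CD40. Srebf2, in contrast, was at 7.11, 8.66, and 8.72 FPKM, beside 6.05, 3.80, 5.91, 7.96, 7.76, and 8.29 FPKM in controls. Anti-CD40 mouse 2 lay inside the control range and the other two lay just above it. Its log2 fold change was 0.34, with a 95% interval from -0.18 to 0.85 (adjusted p = 0.261). Srebf2 passed with the Saa genes left out and rescaled (0.70, adjusted p = 0.0183), where the median over all genes was 0.35.

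Insig1 and Insig2 hold Scap and its SREBP in the endoplasmic reticulum, and Insig1 is itself a known SREBP target. Insig1 (chromosome 5, 28071412 to 28078662) was at 3.91, 4.71, and 4.38 FPKM after anti-CD40 and at 21.8, 21.9, 26.4, 25.2, 20.3, and 21.4 FPKM in controls. It had the lowest coefficient of variation of the 28 genes in controls (10.4%), with mouse 8 at 1.15 times the median of the others. Its log2 fold change was -2.37 (SE 0.12, adjusted p = 4.45e-07), the smallest adjusted p of the 28. Insig2 was at 356, 249, and 337 FPKM after anti-CD40 and at 370, 216, 218, 336, 407, and 355 FPKM in controls. The groups ran through each other, with a log2 fold change of 0.01 and a 95% interval from -0.50 to 0.53 (adjusted p = 0.970). Its sign turned with array weights (-0.05) and when any 1 of 4 mice was left out (-0.09 without control mouse 4), and its value was 0.50 with quantile normalization. Scap, the sterol sensor and escort of SREBPs, was at 25.4, 22.4, and 32.6 FPKM beside 28.5, 28.3, 23.9, 37.6, 35.6, and 39.7 FPKM, a log2 fold change of -0.26 (95% interval from -0.67 to 0.15, adjusted p = 0.275). Nr1h2, which encodes LXRβ, was at 5.89, 5.59, and 4.75 FPKM beside 5.84, 6.19, 5.89, 6.61, 5.40, and 8.53 FPKM, with 1 of 3 anti-CD40 mice below the control range and a log2 fold change of -0.23 (95% interval from -0.57 to 0.11, adjusted p = 0.245). Scap and Nr1h2 turned to 0.10 and 0.13 with the Saa genes left out and rescaled, where the median over all genes was 0.35, and neither passed.

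**Figure D3:**
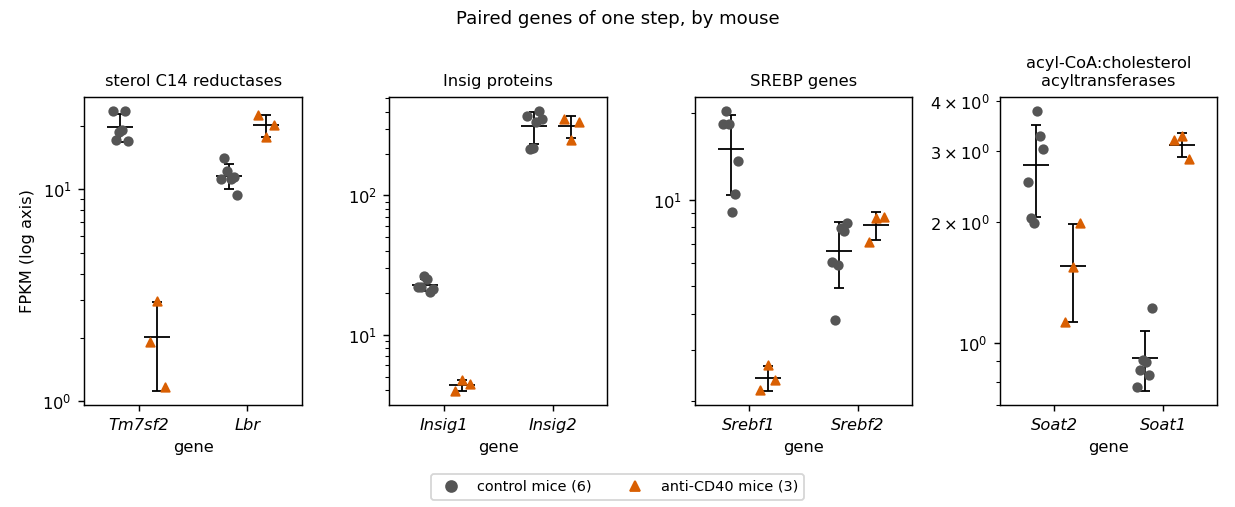
FPKM on log axes for 4 pairs of related genes, with control mice as grey circles, anti-CD40 mice as orange triangles, and bars for the mean and SD (6 and 3 mice). Tm7sf2, Insig1, Srebf1, and Soat2 are lower after anti-CD40, Lbr and Soat1 are higher, and the points of Insig2 and Srebf2 overlap between groups. Heights of different genes are not comparable.

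Stard4 and Soat2 handle sterols once they are made. Stard4, a carrier of cholesterol through the cytosol, was at 3.31, 3.50, and 3.74 FPKM after anti-CD40 and between 8.09 and 17.4 FPKM in controls (median 11.6). It fell by 3.19-fold with no overlap (log2 fold change -1.67, SE 0.22, adjusted p = 1.45e-04). Soat2, the hepatocyte enzyme that esterifies cholesterol, was at 1.13, 1.55, and 1.98 FPKM against 1.98 to 3.78 FPKM (median 2.77), with mouse 9 level with control mouse 7. The smallest whole reads that fit were 48, 62, and 74, and 79 to 124 in controls. Soat2 fell by 0.79 on the log2 scale (SE 0.24, adjusted p = 0.0209 from limma, exact permutation p = 0.0476), the weakest of the 19 declines. It did not pass without anti-CD40 mouse 2 (-0.59, adjusted p = 0.113) or mouse 5 (adjusted p = 0.0597). Soat1, the related enzyme of macrophages and other cells and not one of the 28, rose from 0.777 to 1.22 FPKM in controls to 3.20, 3.27, and 2.88 FPKM (log2 fold change 1.68, adjusted p = 1.55e-05).

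The genes around the route were read from lists of known roles. Another list joined genes that cut, escort, or degrade SREBPs and sterol sensors with genes of sterol carriage between membranes. Of its 12 tested genes, 2 rose and 2 fell, with a median log2 fold change of 0.071. Gramd1a, a sterol carrier between membranes, rose by 1.20 on the log2 scale and Mbtps2, the second protease that cuts SREBPs, by 0.49. Pgrmc1, a heme-binding membrane protein, fell by 0.77, and Gramd1c by 0.69. Of these calls that of Gramd1a alone held as each mouse was left out. Mbtps2 lost its call without anti-CD40 mouse 2 (adjusted p = 0.169) or 9 or control mouse 3 or 8, Pgrmc1 without anti-CD40 mouse 5 or 9 (0.0808), and Gramd1c without anti-CD40 mouse 2 (0.0880) or 5. Pgrmc1 (-0.40, adjusted p = 0.214) and Gramd1c (-0.33, adjusted p = 0.217) also did not pass with the Saa genes left out and rescaled, nor did Pgrmc1 (-0.30, adjusted p = 0.337) and Mbtps2 (0.15, adjusted p = 0.489) with quantile normalization. Against this, all 14 tested genes of fatty acid synthesis under SREBP-1 fell, with a median of -1.66. The largest declines among them were those of Thrsp (-5.02), a regulator of lipogenesis, Scd1 (-3.55), the stearoyl-CoA desaturase, and Acss2 (-2.59), which makes acetyl-CoA from acetate. Thrsp was at 9.06, 13.8, and 13.9 FPKM after anti-CD40 and between 234 and 999 FPKM in controls, with mouse 8 again the highest. The weakest of the 14 declines was only just called (-0.65, adjusted p = 0.0471 from limma, exact permutation p = 0.0714). Its groups overlapped, and those of the other 13 did not.

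Export and storage genes went both ways. Of 9 genes of LXR signaling and sterol export, 4 fell and 2 rose, with a median of -0.59. Abcg8 and Abcg5, which pair to form the transporter that moves sterols into bile, fell by 2.37 and 1.98, and Nr1h3, which encodes LXRα, by 0.73. Abcg1 and Abca1, which load cholesterol onto lipoproteins, rose by 1.18 and 0.66, Abca1 not passing without anti-CD40 mouse 5 (adjusted p = 0.0783). Of 15 genes of lipoprotein uptake, lysosomal cholesterol handling, and esterification, 5 fell and 4 rose, with a median of -0.19. Vldlr, a lipoprotein receptor, fell by 2.36, the sterol carrier gene Stard5 by 1.22, and Lipa, the lysosomal lipase, by 0.77. Vldlr was at 0.112, 0.125, and 0.135 FPKM in anti-CD40 mice 2, 5, and 9, close to the pseudocount of 0.1. Its controls were spread from 0.256 to 1.94 FPKM, so the size of its decline is uncertain (SE 0.47). Besides Soat1, the ester hydrolase gene Nceh1 rose by 0.74 and the lysosomal carrier gene Npc2 by 0.61. Nceh1 did not pass without anti-CD40 mouse 2, 5, or 9 (adjusted p up to 0.123) or control mouse 3, 4, 7, or 8.

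Of 7 genes that make or clear oxysterols, 6 fell and 1 rose, with a median of -1.28. Groups overlapped for 2 of the 6 that fell. Among the other 4, 1 gene lay between 0.0501 and 0.479 FPKM over all mice, around the pseudocount of 0.1. Ch25h, whose product makes an oxysterol that holds back SREBP processing, rose from at most 0.338 FPKM in controls, 1 of them at the floor of 0.01, to 3.07, 3.47, and 1.39 FPKM (log2 fold change 3.65, adjusted p = 7.75e-05). Cyp39a1, Cyp27a1, and Hsd3b7, which act in bile acid synthesis, fell by 1.97, 1.95, and 1.57. Of 12 genes of the isoprenoid side branches, 4 fell and 1 rose, with a median of -0.39. Rabggta and Rabggtb, the subunits of the enzyme that attaches geranylgeranyl groups to Rab proteins, fell by 1.01 and 0.61, and the ubiquinone gene Coq2 by 0.56, whereas the dolichol gene Nus1 rose by 0.36. Nus1 did not pass without anti-CD40 mouse 2 (adjusted p = 0.135) or 9 or control mouse 3, 7, 8, or 12. With the Saa genes left out and rescaled, Rabggtb (-0.24, adjusted p = 0.151) and Coq2 (-0.20, adjusted p = 0.228) did not pass. The share of each list is to be read beside the 21.7% and 23.5% of all genes called lower and higher. These lists were compiled with earlier results of these mice known.

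**Figure D4:**
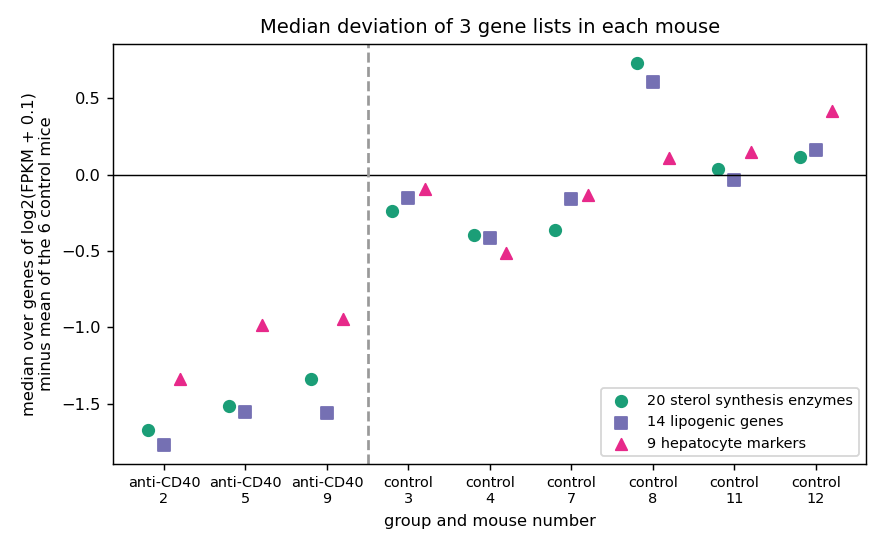
Each point is the median over the genes of a list of log2(FPKM + 0.1) minus the mean of the 6 control mice, for each mouse, with green circles for the 20 enzymes, purple squares for 14 lipogenic genes, and pink triangles for 9 hepatocyte markers. All 3 lists are below every control mouse in each anti-CD40 mouse, and control mouse 8 is high for enzymes and lipogenic genes but not for hepatocyte markers.

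Mouse by mouse, the 20 enzymes had median deviations from the control mean of -1.67, -1.51, and -1.34 on the log2 scale in anti-CD40 mice 2, 5, and 9. For the hepatocyte markers these were -1.34, -0.99, and -0.95. The median of the sterol enzymes was lower than that of the hepatocyte markers in each of the 3 mice, a comparison that was not tested. The log2 fold changes of the markers ranged from -2.43 to 0.88. Their median is therefore not a measure of the share of hepatocytes. In control mice 3, 4, 7, 8, 11, and 12 the enzymes were at -0.24, -0.40, -0.37, 0.73, 0.03, and 0.11, and the hepatocyte markers at -0.09, -0.51, -0.14, 0.11, 0.15, and 0.41. Within the anti-CD40 group, mouse 9 was the highest for 18 of the 28 genes, and mouse 2 was the lowest for 13.

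Position and overlap limit some values. For 6 of the 28 genes the annotated 3′ end, where these libraries are read, lies within another protein-coding gene: Fdft1, Srebf1, Cyp51, Lbr, Mvd, and Fdps. Of the neighbours with values not yet given, Akap9, which overlaps Cyp51 by 166 bases, differed by 0.28 on the log2 scale (adjusted p = 0.156). Lss and Srebf2 each share their locus in the deposited table with another name. Because FPKM divides by transcript length and these reads come from the 3′ end, levels of different genes are not comparable, and fold changes were read within genes only.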

How the data were processed

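Liver RNA from 9 mice (3 anti-CD40, 6 control) was made into QuantSeq 3′ FWD libraries and sequenced by the authors, who mapped them against mm10 using STAR and used Cufflinks and Cuffdiff for quantification. The authors deposited FPKM for 24341 genes, with a floor of 0.01 FPKM. The annotation and the strand setting are not given in the sources used here. Mice were grouped by the sample labels, each a separate animal. Read totals are not given, so the absolute depth is unknown and no interval that needs it was computed. Relative depth came from the steps between low values.

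The 15 genes with a failed estimate were left out. Genes with a mean of at least 0.1 FPKM (13807) were tested as log2(FPKM + 0.1), which understates changes of low genes, with limma 3.58.1 in R 4.3.3 (eBayes with a trend, 2-sided, Benjamini-Hochberg adjustment over all genes). In simulated data for this comparison with 200 of 13807 genes changed, 72% were recovered at a log2 fold change of 1 and 95% at 2, with 11 false calls. The simulation gave both groups the control spread and changed only genes with higher control means. In the real data 21.7% of genes were called lower and 23.5% higher, so these rates need not hold there or for low genes. Python 3.11.15 with pandas 2.3.3, scipy 1.17.1, and matplotlib 3.10.9 did the other steps. Alternatives were other pseudocounts (1 and 0.01), other filters (none, or a mean of at least 1 FPKM), quantile and median of ratios scaling, the Saa genes left out with rescaling, eBayes without the trend or robust, array weights, and each mouse left out.

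The members and lists were chosen with earlier results of these data known. All 28 genes are named, and called members have values by anti-CD40 mouse, with the range and median of the 6 controls. Srebf1, Srebf2, Scap, Insig1, and Insig2 have values in all mice. Of each pathway list, up to 3 called genes per direction with the largest log2 fold change are named. Some genes of the pathway are not reported here.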

Additional observations from a re-analysis of the deposited data

Results flagged for a closer look

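The 6 control mice were examined for a single mouse far from the rest, by the gap to its nearest neighbour over the range of the group on the log2 scale, set against Dixon's critical value for 6 samples. Of 56 results examined, single genes and 2 list medians, 5 were above it, all single genes, and chance gives about 1 in 20 (2.8). Pmvk was highest in control mouse 8 (0.719), at 131 FPKM, with the next control at 79.1 FPKM. Ggps1 was lowest in control mouse 12 (0.677), at 1.77 FPKM, with the next control at 2.42 FPKM. Mbtps2 was lowest in control mouse 8 (0.747), at 0.663 FPKM. Abcg8 (0.632) and Soat1 (0.67) were highest in control mouse 12, at 38.9 and 1.22 FPKM.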

How the results depend on the processing

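Of the 20 genes called among the 28, 19 were called under all 19 alternatives, Soat2 being the exception. Soat2 was not called without a filter (adjusted p = 0.0590), with the Saa genes left out and rescaled (0.127), or without anti-CD40 mouse 2 or mouse 5. The number of the 28 genes called lower ranged from 18 to 20. With the Saa genes left out and each mouse rescaled, 3 were called higher (Lbr, Ggps1, and Srebf2), in place of 1. In that setting Nr1h2 (0.13), Scap (0.10), and Sqle (0.27) changed sign, and 77.2% of all calls were higher in place of 52.0%. This rescaling raises every gene in the anti-CD40 mice against the controls. The median log2 fold change over all genes was 0.35 there, in place of 0.0056. The share of calls that were higher was 46.4% with quantile normalization. Insig2 was -0.049 with array weights and ranged from -0.088 to 0.17 when each mouse was left out, and Sqle from -0.23 to 0.062. Mvd was called with array weights (adjusted p = 0.0406). Of the 8 genes not called, 5 were called under no alternative. The median log2 fold change of the 28 genes ranged from -1.49 to -1.13 as each mouse was left out. Of the values of named neighbouring genes under the alternatives, 459 kept their direction and call and 33 kept their direction only. No paired analysis was possible because the groups share no mouse numbers. Genes of low FPKM, such as Idi1, are limited by reads, and the number of mice limits the precision of all.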
